A study of Homo sapiens with 2 samples.

Results

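The broad EGR1 intervals are the 469 of 7709 called intervals (6.08%, exact Clopper-Pearson 95% interval 5.56 to 6.64%) that were at least 800 bp wide in a chromatin immunoprecipitation and sequencing (ChIP-seq) experiment with an antibody against EGR1. They were chosen by width alone, so their width is a description and nothing is tested with it. The cells were of the t-HESC line, which is immortalised and derives from human endometrial stroma, the connective tissue under the lining epithelium of the uterus. They were grown in serum-containing medium with puromycin and received no treatment. There was 1 library from the immunoprecipitated DNA and 1 from input DNA of the same line, each without a replicate, and the intervals came from the former. Positions are on build GRCh37, each interval carries 1 summit with a score given by the authors, and read depth is unknown. The genes, promoters and sequence at the intervals were not analysed here, because the gene models and sequences at hand are on another build.

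EGR1 is a zinc-finger transcription factor that is made within minutes of a growth or stress signal and binds GC-rich DNA, often in promoters. It switches on many genes, among them those of the NAB proteins, which bind EGR1 and restrain it. In endometrial stroma it has been studied in connection with decidualization, the change of stromal cells that prepares the uterus for an embryo. In a ChIP-seq experiment a sequence-specific factor that sits at 1 place usually gives a short interval with its summit near the middle. The summit is the point of highest signal, and the edges are where the signal falls below the caller's limit.

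By 3 measures the broad intervals had more EGR1 summits around them than narrower intervals of the same score. These were the share with a summit at 2 to 10 kb and the mean numbers within 100 kb and 1 Mb. Of the 469, 106 (22.6%, 95% interval 18.9 to 26.7%) had another summit between 2 and 10 kb from their own, against 16.0% of all 7709 intervals. To compare at equal score, the 7240 intervals under 800 bp were re-weighted to the scores of the broad ones in 10 score bands, and this gave 13.5%. The difference was 9.12 percentage points (95% interval 4.96 to 13.3). With the innermost 2 kb included, 38.6% of the broad and 33.9% of the narrower intervals had another summit within 10 kb, and the difference of 4.71 points had a 95% interval of -0.322 to 9.75, which included 0. Within 100 kb on either side, a broad interval had a mean of 2.86 other summits (SD 3.06, median 2) and the narrower ones, at the same scores, a mean of 2.20. That difference was 0.667 summits (95% interval 0.361 to 0.972). Within 1 Mb the means were 17.0 and 13.9 (difference 3.06, 95% interval 1.63 to 4.50). Apart from the share within 10 kb, these differences had 95% intervals that excluded 0, which describes this list and is no test. The share with any other summit within 5, 20, 50 or 200 kb also gave differences whose 95% intervals included 0. Within 100 kb that difference was 5.78 points (1.23 to 10.3). The inner limit of 2 kb leaves out a zone with no surplus, where the difference was -2.45 points (-6.87 to 1.96). The intervals of the differences treat each EGR1 interval as independent although neighbours lie close together, so they are too narrow, and they cover this library only. The share at 2 to 10 kb and the numbers within 100 kb and 1 Mb were chosen after the data were seen.

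The surplus of neighbours was also present when broad intervals were compared with narrower ones of their own chromosome, taken over all chromosomes together. When narrower intervals were re-weighted to the same chromosome and 1 of 3 score bands, the difference was 8.12 percentage points at 2 to 10 kb (95% interval 3.97 to 12.3), 0.504 summits within 100 kb (0.206 to 0.803) and 1.92 within 1 Mb (0.536 to 3.30). In 9 of the 10 score bands the broad intervals had more summits within 100 kb than the narrower ones, and in 8 of the 10 a larger share had a summit at 2 to 10 kb. The surplus was smaller against the intervals just under 800 bp, but these are too few to tell whether it sets in at that limit. Against the 306 intervals of 700 to 799 bp alone, the difference within 100 kb was 0.345 summits and its 95% interval, -0.0631 to 0.754, included 0. The corresponding value within 1 Mb was 1.50 (-0.524 to 3.53). At 2 to 10 kb it was 5.87 percentage points (0.117 to 11.6), which excluded 0.

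Among the broad intervals themselves, the share with a neighbour is given by width as a description, since width chose them. Only intervals with a score of 40 or more were used, without re-weighting. Scores still rose with width, from a median of 67 at 800 to 999 bp to 73.5 at 1000 to 1499 bp and 85.5 above. Of the 207 intervals of 800 to 999 bp, 14.5% had another summit at 2 to 10 kb (95% interval 10.00 to 20%). The share was 24.6% in the 122 intervals of 1000 to 1499 bp (17.2 to 33.2%) and 45.0% in the 20 of 1500 bp or more (23.1 to 68.5%). The last value rests on few intervals. In the 193 intervals of 700 to 799 bp the share was 18.7% (13.4 to 24.9%), and in the 253 of 300 to 399 bp it was 10.3% (6.82 to 14.7%). These were the highest and lowest shares among the classes under 800 bp. The others were 18.0% under 300 bp (n = 61), 11.2% at 400 to 499 bp, 14.6% at 500 to 599 bp and 14.1% at 600 to 699 bp. The share at 800 to 999 bp thus lay within the range of the narrower classes, and the shares did not rise steadily with width. For the 184 intervals of at least 1000 bp at any score, the difference from narrower intervals of the same score was 16.8 percentage points (9.93 to 23.7).

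Closer in, no surplus was detectable. Another summit lay within 2 kb of 109 of the 469 (23.2%, 19.5 to 27.3%), against 29.9% of all intervals and 25.7% of narrower ones at the same scores. The difference of -2.45 percentage points had a 95% interval of -6.87 to 1.96, so it was within counting error. Within 1 kb the difference was -6.06 (-9.77 to -2.35), and within 5 kb it was 3.62 (-1.20 to 8.44). A broad interval takes up part of the first kb around its own summit and holds only 1 summit by construction. The effect of this on these values, and on those from 2 kb outwards, was not tested. Measured from edge to edge, 106 broad intervals (22.6%) had another interval within 1000 bp, against 27.3% of all intervals and 23.4% of narrower ones at the same scores (difference -0.833 points, -5.18 to 3.51).

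**Figure D1:**
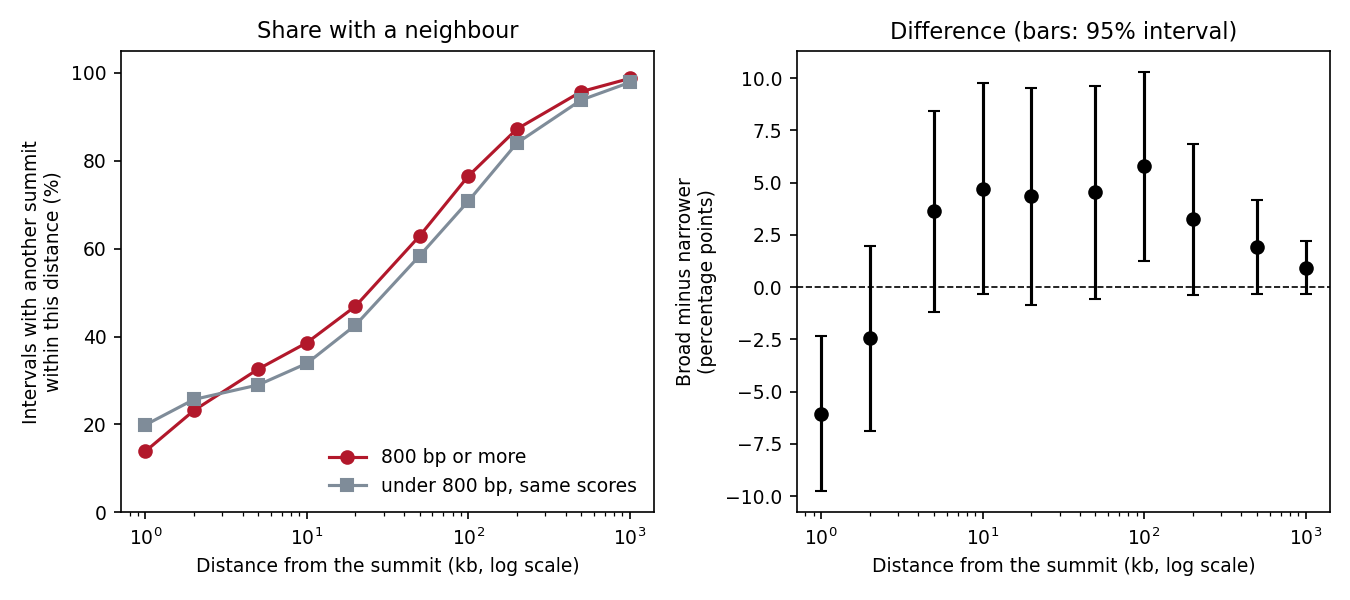
Left, the share of intervals (%) with another EGR1 summit within a given distance (kb, log scale), for the 469 intervals of 800 bp or more and for the 7240 narrower ones re-weighted to the same scores. Right, broad minus narrower in percentage points, with bars for the 95% interval (counting error). The difference is -6.06 at 1 kb, crosses 0 between 2 and 5 kb and is 4.71 (-0.322 to 9.75) at 10 kb, 4.34 (-0.852 to 9.53) at 20 kb, 4.54 (-0.550 to 9.63) at 50 kb, 5.78 (1.23 to 10.3) at 100 kb and 3.24 (-0.374 to 6.85) at 200 kb. Among the positive differences, the bar at 100 kb alone excludes 0.

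The widths of the broad intervals trailed off quickly above the limit. Their median was 949 bp (quartiles 862 and 1098 bp), 285 were 800 to 999 bp wide, 161 were 1000 to 1499 bp and 23 were 1500 bp or more. Together they covered 478122 of the 3160318 called bp, or 15.1%. The intervals nearest the limit did not stand apart in score. The 5 just inside were 800 to 803 bp wide with scores of 55, 23, 48, 135 and 36, and the 5 just outside were all 799 bp wide with scores of 18, 54, 26, 71 and 58.

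Broad intervals had higher scores than narrower ones, but width and score were only weakly related above 800 bp. Their median score was 58 (quartiles 39 and 86, range 16 to 336), against 25 in the narrower intervals (quartiles 20 and 34). The share of intervals that were broad was 0.175% at scores of 11 to 19 (3 of 1713). It was 10.8% at scores of 40 to 49 (69 of 638), 43.8% at 100 to 149 (63 of 144) and 57.1% at 150 or more (16 of 28, 95% interval 37.2 to 75.5%). Spearman's rho of width with score was 0.166 over the 469 and 0.593 over the 7240 narrower intervals. Both are descriptions over intervals that share 1 library, and the range of widths differs between the groups. A high score did not require a broad interval. A score of 100 or more was reached by 172 intervals, of which 79 were broad (45.9%, 38.3 to 53.7%), 93 were narrower and 17 were under 500 bp. The narrowest of these, on chromosome 20 at 49347606 to 49347945, was 340 bp wide with a score of 121.

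**Figure D2:**
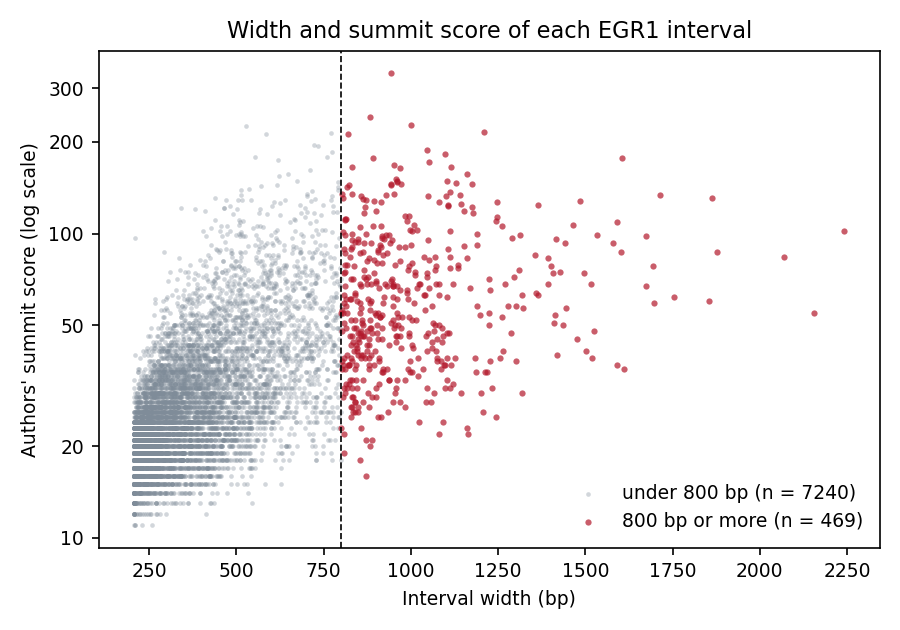
Each point is 1 EGR1 interval, with its width (bp) and the authors' summit score (log scale). The dashed line marks 800 bp. The 469 broad intervals, right of the line, range in score from 16 to 336.

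**Figure D3:**
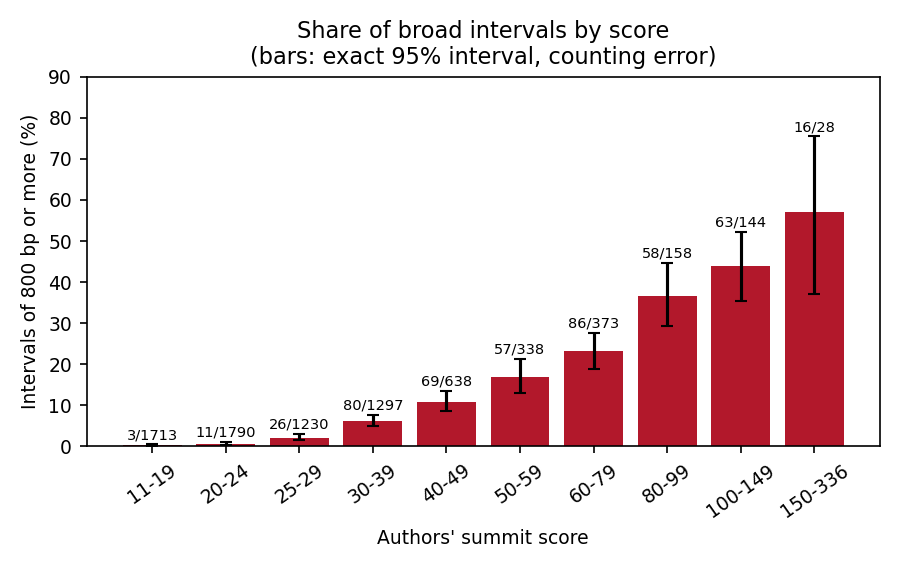
Share of intervals of 800 bp or more (%) in each of 10 bands of the authors' score, with exact 95% intervals and the counts above each bar. The share runs from 0.175% at scores of 11 to 19 to 57.1% at scores of 150 or more.

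The widest interval of all lay on chromosome 12 at 57480369 to 57482610 and was 2242 bp wide, with a score of 102. It belonged to the longest site of the broad intervals, a run of 4 intervals within 1000 bp of one another that spanned 5825 bp. Its neighbour at 57482812 to 57484204 was also broad, with a width of 1393 bp and a score of 83. The other members, at 57485205 to 57485500 and at 57485964 to 57486193, were 296 and 230 bp wide with scores of 24 and 17. Width and score thus both fell along the run as joined. The fall ended with the joining limit, since the next interval, at 57487225 to 57488826, was broad again, 1602 bp wide with a score of 87. It began just over 1000 bp past the run and so was not counted in it. The site was singled out for its length, after the values were seen.

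The other intervals among the 10 widest varied in score and in surroundings. An interval of 2155 bp on chromosome 12, at 49739355 to 49741509, had a score of 55, and its summit lay 422 bp from one edge and 1733 bp from the other. One of 2069 bp on chromosome 2, at 66802642 to 66804710, had a score of 84 and no other summit within 100 kb. Chromosome 19 held 3 of the 10. They were 1876 bp wide at 2474875 to 2476750 (score 87), 1853 bp at 55690471 to 55692323 (score 60) and 1755 bp at 49371057 to 49372811 (score 62). An interval of 1863 bp on chromosome 13, at 41634425 to 41636287, had a score of 131 and 1 other summit within 100 kb. One of 1715 bp on chromosome 20, at 44599445 to 44601159, was scored 134. The last 2, on chromosome 16, were 1697 bp wide at 81039969 to 81041665 (score 59) and 1694 bp wide at 4423450 to 4425143 (score 78). The scores of the 10 widest ran from 55 to 134, and none of them was among the 10 broad intervals with the highest scores.

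The 10 broad intervals with the highest scores had widths of 821 to 1606 bp, none of them among the 10 widest. The interval on chromosome 17 at 49230557 to 49231499 led with a score of 336 and was 943 bp wide. Next came an interval on chromosome 16, from 31191009 to 31191892, with a score of 241 and a width of 884 bp. The interval of 1606 bp lay on chromosome 9, at 131709065 to 131710670, and had a score of 177. The interval on chromosome 2 at 70417445 to 70418489 (1045 bp, score 188) and that on chromosome 1 at 16161573 to 16162671 (1099 bp, score 183) had summits 313 and 239 bp from the nearer edge.

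A few broad intervals had low scores. There were 14 with a score of 24 or less, out of 3503 intervals with such scores. The lowest was on chromosome X at 53710600 to 53711471, 872 bp wide with a score of 16 and no other summit within 100 kb. The next was on chromosome 19 at 10380422 to 10381275, 854 bp wide with a score of 18 and 12 other summits within 100 kb. An interval on chromosome 12 at 124869726 to 124870889 was 1164 bp wide with a score of 22, and its summit lay 99 bp from one edge and 1065 bp from the other. Among these low-scored intervals, some lay among many others and some alone.

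The summit of a broad interval often lay far from the middle. The offset, the distance from summit to midpoint as a share of the width, averaged 16.7% (SD 10.6, n = 469 intervals), against 10.3% in narrower intervals at the same scores. It is measured from the same edges as the width that chose the members, so the difference of 6.43 percentage points is a description and no test. The summit was within 10% of the width of the midpoint in 162 broad intervals (34.5%), against 46.5% of all intervals and 56.5% of narrower ones at the same scores. Among intervals of 700 to 799 bp at the same scores that share was 40.7%. The difference of -6.19 points (95% interval -13.6 to 1.19) is measured from the same edges and is likewise a description. The summit was within 20% of the width of an edge in 61 (13.0%), against 6.49% of all and 1.12% of narrower ones at the same scores. The distance from summit to edge had a median of 329 bp on the shorter side (quartiles 239 and 416 bp) and of 647 bp on the longer side (quartiles 548 and 763 bp). In 123 broad intervals (26.2%) the longer side was at least 3 times the shorter, against 12.8% of all intervals and 4.13% of narrower ones at the same scores. In intervals of 700 to 799 bp at the same scores this share was 18.4%. In 97 broad intervals the longer side alone was 800 bp or more, which by construction no interval under 800 bp could reach.

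**Figure D4:**
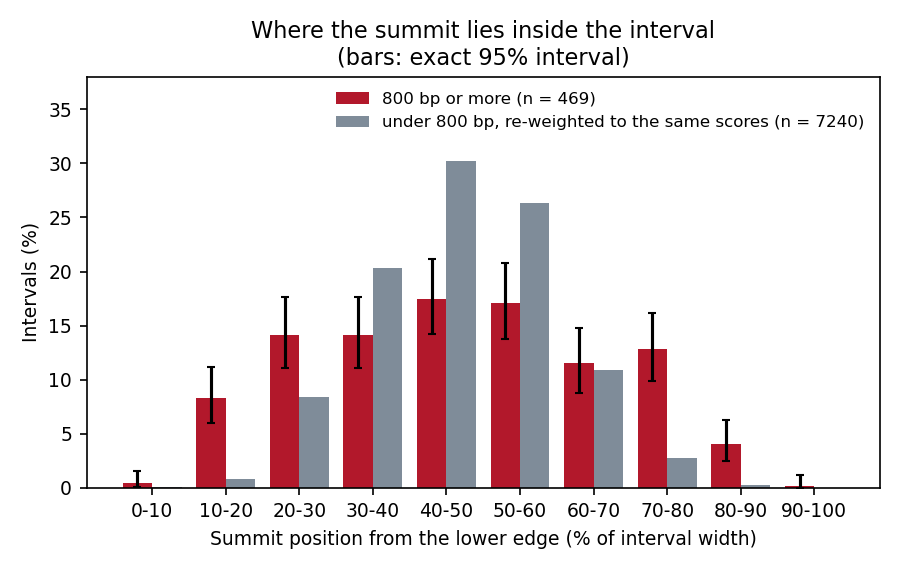
Share of intervals (%) by where the summit lay along the width, in steps of 10% from the lower coordinate, for the 469 broad intervals (bars: exact 95% interval) and for the 7240 narrower ones re-weighted to the same scores. At 40 to 50% of the width the broad intervals reach 17.5% and the narrower ones 30.2%, and at 10 to 20% of the width the values are 8.32% and 0.800%.

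From 300 bp upwards the mean offset was larger in wider classes up to about 1000 bp, with no step at 800 bp. At scores of 40 or more it averaged 7.23% (SE 0.735, n = 61) in intervals under 300 bp, 5.81% (SE 0.284, n = 253) in intervals of 300 to 399 bp and 11.6% (SE 0.394, n = 302) at 500 to 599 bp. It averaged 14.3% (SE 0.645, n = 193) at 700 to 799 bp, 16.0% (SE 0.690, n = 207) at 800 to 999 bp, then 15.9% (SE 0.899, n = 122) at 1000 to 1499 bp and 14.0% (SE 2.65, n = 20) at 1500 bp or more. Among broad intervals the mean offset varied with score, without a steady order. It was 15.2% at scores of 11 to 19 (n = 3), 21.8% at 20 to 24 (n = 11) and 22.4% at 25 to 29 (n = 26). It was 18.1% at 30 to 39 (n = 80), 19.3% at 40 to 49 (n = 69) and 18.7% at 50 to 59 (n = 57). At higher scores it was 15.7% at 60 to 79 (n = 86), 13.7% at 80 to 99 (n = 58), 12.0% at 100 to 149 (n = 63) and 14.1% at 150 or more (n = 16). Summit positions that were exact multiples of 32 bp, a grid seen in the whole list, made up 404 of the 469 (86.1%), against 77.2% of all intervals and 85.0% of narrower ones at the same scores (difference 1.15 percentage points, 95% interval -2.34 to 4.65), so the offset is not resolved below that step. The 5 broad intervals with the most unequal sides all had scores below 40. The first of them, on chromosome 16 at 3070463 to 3072053, was 1591 bp wide with a score of 37, and its sides were 130 and 1461 bp long.

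The broad intervals were spread over all 23 chromosomes in rough proportion to all intervals. Chromosome 19 held 53 of the 469 (11.3%, 8.58 to 14.5%), against 8.74% of all intervals and 8.36% of narrower ones at the same scores. The difference of 2.94 percentage points had a 95% interval of -0.227 to 6.11. It was 3.48 (0.941 to 6.02) for intervals of at least 700 bp and 5.42 (0.299 to 10.5) for those of at least 1000 bp, where the interval excluded 0. Against intervals of 700 to 799 bp at the same scores, of which 10.6% were on chromosome 19, the difference was 0.652 (-3.99 to 5.30). The share of a chromosome's intervals that were broad ran from 2.47% on chromosome 13 (4 of 162, 0.677 to 6.20%) to 7.86% on chromosome 19 (53 of 674, 5.95 to 10.2%). The 95% interval of every chromosome's share included the 6.08% of all intervals. Chromosome 13 would hold 9.34 broad intervals, and chromosome 19 42.5, if each band of scores had the same share of broad intervals everywhere.

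**Figure D5:**
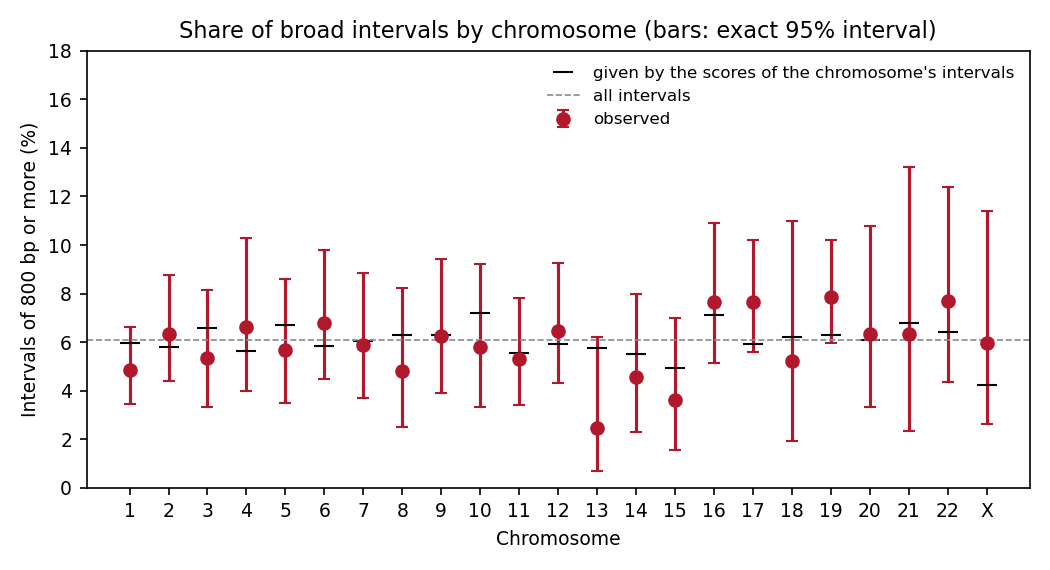
Share of each chromosome's intervals that were 800 bp or more (%, points, with exact 95% intervals), the share that the scores of its intervals would give (black dashes) and the share over all intervals (dashed line, 6.08%). The intervals of all 23 chromosomes cross the dashed line.

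Most broad intervals stood alone, as did most intervals of the whole list. Another interval lay within 1000 bp of 22.6% of the broad ones, against 27.3% of all and 23.4% of narrower ones at the same scores. Standing alone was thus no trait of the broad intervals. Joined to any interval within 1000 bp, they formed part of 463 sites, of which 363 were a single interval, 72 had 2 intervals, 22 had 3 and 6 had 4. Of the 463 sites, 6 held 2 broad intervals and none held 3. After the site on chromosome 12, the longest spanned 4285 bp on chromosome 16 at 4423450 to 4427734, 3997 bp on chromosome 7 at 2556226 to 2560222, and 3904 bp on chromosome 4 at 55096202 to 55100105. Each of these 3 held 2 broad intervals. By Mb of sequence, 286 of the 357 bins with a broad interval held 1. The bin with most was chromosome 7 from 2000001 to 3000000, where 6 of 17 intervals were broad (35.3%), with widths of 904 to 1288 bp and scores of 31 to 55. The 46 intervals of chromosome 19 from 1000001 to 2000000, in contrast, included 4 broad ones (8.70%). These regions were picked after their counts were seen, and no test was made of them.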

How the data were processed

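EGR1 ChIP-seq intervals of 1 library were analysed. Nuclei were sonicated, and fragments of 200 to 300 bp were cut from a gel and amplified over 18 PCR cycles, per the labels' protocols. The submitters' processing notes name BWA, MACS, MACS2 2.1.0 and build GRCh37.p2. For options, threshold and duplicate reads, no setting is given in the sources used here. The authors deposited interval positions and 1 score per summit, a whole number of unstated unit, used only to rank and band intervals within this list.

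Width is the end minus the start of a row. Starts were taken as 0-based and are printed 1-based. Narrower intervals were re-weighted to the score distribution of the broad ones over bands with lower edges of 11, 20, 25, 30, 40, 50, 60, 80, 100 and 150. Differences have normal 95% intervals, and shares have exact Clopper-Pearson ones. They cover counting error only, and no p-value was computed. The re-weighting was checked on simulated data with each interval drawn independently, so the check does not cover the dependence between neighbours. The software was matplotlib 3.10.9, scipy 1.17.1, pandas 2.3.3 and numpy 2.4.6 on Python 3.11.15.

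The members, measures and lists were chosen with earlier results of these data known. The intervals named are the 10 widest, the 10 broad ones of highest and of lowest score, and the 5 on each side of the limit. The longest sites, the fullest bins, the narrowest high-scored interval and the most unequal ones were added after their values were seen. Promoter, gene list, GC, CpG and motif results were planned and not run, since they need GRCh37 gene models and sequence.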

Additional observations from a re-analysis of the deposited data

How the results depend on the processing

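No paired analysis was possible because there was 1 ChIP library. The number of broad intervals was 775 at a limit of 700 bp and 184 at 1000 bp, by construction, and 416 without chromosome 19. Of the 97 alternatives run over the measures that have a 95% interval, 85 gave a value inside that of the reported one. None reversed the sign of a difference whose interval excluded 0, but some intervals came to include 0. The share with another summit at a limit of 5 kb differed by 3.62 percentage points, where that at 2 kb differed by -2.45, and both intervals included 0. At 2 to 10 kb the difference was 16.8 for intervals of at least 1000 bp (9.93 to 23.7), which excluded 0. Against intervals of 700 to 799 bp the surplus fell to 0.345 summits within 100 kb (-0.0631 to 0.754) and 1.50 within 1 Mb (-0.524 to 3.53). The difference in the share with the summit near the midpoint, a description and no test, fell to -6.19 points (-13.6 to 1.19) there. The 95% intervals just given for the comparison with 700 to 799 bp all included 0. The offset difference was 3.40 points against intervals of 500 to 799 bp and 1.91 against those of 700 to 799 bp. The comparison intervals are wider there by construction. Alternatives for promoter, opposed start site, GC, CpG and motif results were not run. Without read counts, depth sets no stated limit.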

Other observations

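Where a broad interval had another interval nearby, its summit lay more often towards it than away from it. Among the 106 with another interval within 1000 bp of an edge, the summit was on the side of that neighbour in 64 (60.4%, exact 95% interval 50.4 to 69.7%). In 1987 narrower intervals with such a neighbour the share was 53.6% (51.4 to 55.8%). Intervals with the summit exactly at the midpoint, or with both neighbours equally far, were left out. The narrower intervals were not re-weighted to the same scores here. The ranges of both groups overlap, and the difference between them was not tested. The side is measured from the edges that set the width, and neighbours are counted as independent, so these shares are descriptions.

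Narrower intervals had their summit nearer the lower than the upper coordinate in 63.5% of cases, and broad ones in 54.4% (255 of 469, 49.7 to 58.9%), against 62.9% of all intervals.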
